A study of Mus musculus with 6 samples.

Results

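The 10 genes described here are the receptors for glucocorticoid hormones and a set of genes that these hormones are known to induce. They were taken by symbol from a gene table of adult mouse hippocampus. The receptors are Nr3c1 (the glucocorticoid receptor) and Nr3c2 (the mineralocorticoid receptor). The response genes are Fkbp5, Sgk1, Tsc22d3, Sult1a1, Cdkn1a, Pdk4, Hif3a and Zbtb16. All 10 symbols were found among the 23235 genes of the table, and all 10 were among its 14964 tested genes.

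Hippocampal RNA came from 6 male mice aged 60 to 70 days, 3 per genotype. The wildtype mice carried Rbfox1 alleles flanked by loxP sites (Rbfox1 fl/fl; +/+), and the Nes-cKO mice carried the same alleles and a Nestin-driven Cre recombinase (Rbfox1 fl/fl; Nes/+). Nestin is active in neural progenitors, so that neurons, astrocytes and oligodendrocytes descend from recombined cells while microglia and most vascular cells do not. The wildtype mice carried no Cre, so an effect of the Cre and of the deletion cannot be told apart. The series compared transcript levels and exon use between the genotypes, and Rbfox1 encodes a neuronal RNA-binding protein that regulates splicing and messenger RNA levels.

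Corticosterone, the main glucocorticoid of mice, crosses into cells and binds both receptors, which wait in the cytoplasm in complexes with Hsp90 and its partner proteins. The bound receptor moves to the nucleus and attaches to glucocorticoid response elements, a palindrome of a pair of 6-base half-sites spaced by 3 bases. The hippocampus is known for holding both receptors: the mineralocorticoid receptor has the higher affinity and is largely occupied at resting hormone levels, whereas the glucocorticoid receptor fills during stress and at the daily peak.

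The element and its half-sites are shown first, because they are letters that these receptors are known to bind. RefSeq promoter windows of the GRCm38.p6 build, running from 250 bases before to 50 bases after an annotated start site, were found for 8 of the 10 genes, 16 windows in all. The search covered both strands for the half-site AGAACA, which reads TGTTCT on the other strand, and for the full element, in which AGAACA, any 3 bases and TGTTCT follow each other. A full element therefore also counts as a pair of half-sites. The first sequence below is the Sgk1 window that holds the full element. The other sequences are the half-site windows of Sult1a1 and Tsc22d3, whose transcripts were lower in Nes-cKO. Each is written 5′ to 3′ on the strand of its gene, with half-sites or the element in capitals.
Sgk1, chr10:21993640-21993939, plus strand: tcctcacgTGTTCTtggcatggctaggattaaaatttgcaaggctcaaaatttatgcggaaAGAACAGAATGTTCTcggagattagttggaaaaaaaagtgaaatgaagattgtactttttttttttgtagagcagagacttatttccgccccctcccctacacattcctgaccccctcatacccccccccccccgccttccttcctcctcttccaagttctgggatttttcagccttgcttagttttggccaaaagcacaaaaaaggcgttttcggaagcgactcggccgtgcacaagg
Sult1a1, chr7:126676369-126676668, minus strand: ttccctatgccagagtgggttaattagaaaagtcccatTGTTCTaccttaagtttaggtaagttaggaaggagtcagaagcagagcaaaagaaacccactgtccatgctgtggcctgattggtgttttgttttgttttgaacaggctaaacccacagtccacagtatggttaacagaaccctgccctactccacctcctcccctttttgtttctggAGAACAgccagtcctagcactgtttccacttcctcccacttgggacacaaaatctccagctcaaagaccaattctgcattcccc
Tsc22d3, chrX:140600473-140600772, minus strand: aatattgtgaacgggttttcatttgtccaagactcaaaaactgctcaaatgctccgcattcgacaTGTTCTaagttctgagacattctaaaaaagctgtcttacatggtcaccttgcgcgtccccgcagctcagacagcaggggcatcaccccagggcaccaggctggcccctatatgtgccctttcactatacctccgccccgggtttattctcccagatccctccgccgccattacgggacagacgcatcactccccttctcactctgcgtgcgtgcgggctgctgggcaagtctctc

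The full element was present in 3 of the 32851 mouse promoter windows searched, or 0.00913%, and the Sgk1 window was among these 3. In that window it reads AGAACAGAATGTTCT, begins 189 bases before the start site of the window and lies 965 bases before the next annotated Sgk1 start site. Half-sites were common: 18.97% of all windows held at least 1, against 5 of the 16 member windows. These were 3 of 6 Sgk1 windows, the Sult1a1 window and 1 Tsc22d3 window. The Sult1a1 half-sites begin 212 and 34 bases before its start site. The Tsc22d3 half-site begins 185 bases before its start site, and the windows at the other annotated Tsc22d3 start sites held none. The windows of Fkbp5, Cdkn1a, Pdk4, Hif3a and Nr3c2 held neither, which says only that these letters are not within these 300 bases. A match is a description of the sequence and no binding was measured.

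Levels are given as FPKM, fragment counts scaled by transcript length and library depth, with 1 value per gene and genotype in the authors' deposited table. No spread between mice can be computed from these values, so the only test across the 3 and 3 mice is the authors' own. A gene was called at a q-value below 0.05, adjusted by the authors over all tested genes. To give each log2 ratio an error, the authors' deposited p-value was read as a two-sided normal tail, and the standard error (SE) this implies is printed after the ratio. It covers only the variation that the p-value reflects. For Cdkn1a, whose p-value is the smallest the table holds (5e-05), the implied SE is an upper limit. The authors' deposited test score, if read as a normal score, would give a larger SE.

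Of the 10 genes, Cdkn1a rose and Tsc22d3, Sult1a1 and Hif3a fell in Nes-cKO hippocampus, while both receptors and the other 4 response genes did not pass. Among all tested genes of the authors' deposited table, the share called was 6.92% in either direction, 4.62% higher and 2.29% lower. Of the 10 genes here, 4 were called, 1 higher and 3 lower. The median log2 ratio of the 10 was -0.18, beside 0.03 for all tested genes. Among genes that reached 1 FPKM in either genotype, which leaves out Hif3a, it was -0.0465 for the other 9 members and 0.03 for 12685 tested genes. The genes were chosen with earlier results of these data known, so this share is a description. Rbfox1 itself had an FPKM of 67.5 in wildtype against 23.0 in Nes-cKO.

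The level of the 10 genes spanned a wide range, and its order was nearly the same in both genotypes. In wildtype, Nr3c2 was highest at 28.6 FPKM, above 85.1% of all tested genes, and Hif3a lowest at 0.914 FPKM, above 15.5% of them. Sgk1, Tsc22d3, Fkbp5 and Nr3c1 followed Nr3c2 in wildtype, and Zbtb16, Sult1a1, Cdkn1a and Pdk4 stood between Nr3c1 and Hif3a. In Nes-cKO, 3 neighbouring pairs had changed places: Fkbp5 stood above Tsc22d3, Zbtb16 above Nr3c1 and Cdkn1a above Sult1a1. With 1 value per genotype, neighbours in this order could not be compared with a spread. In the plot of levels by genotype, the same 2 genes are at the top, Nr3c2 and Sgk1, and the same 2 at the bottom, Pdk4 and Hif3a.

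**Figure D1:**
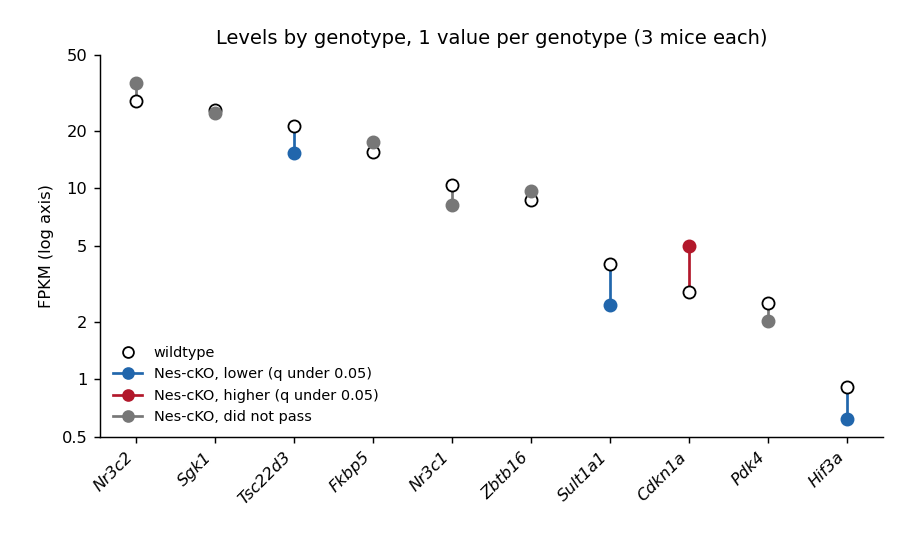
FPKM of each gene (log axis) in wildtype (open circles) and Nes-cKO (filled circles), ordered by the wildtype level, with 1 value per genotype and no error bars. Tsc22d3, Sult1a1 and Hif3a (blue) were lower and Cdkn1a (red) higher at q below 0.05, and the 6 grey genes did not pass.

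The receptors pointed in opposite directions and neither passed the threshold. Nr3c1 (mm9 chromosome 18, 39570199 to 39646899), which encodes the low-affinity receptor of the stress range, had a level of 10.4 FPKM in wildtype against 8.19 FPKM in Nes-cKO. Its log2 ratio was -0.34 (implied SE 0.12), for which the authors' deposited table gave p = 0.00585 and q = 0.0739. Nr3c2 (chromosome 8, 79426407 to 79767538), the high-affinity receptor that also binds aldosterone, had a level of 28.6 FPKM in wildtype against 35.6 FPKM in Nes-cKO. Its log2 ratio was 0.31 (implied SE 0.12), and the authors' deposited table gave p = 0.00800 and q = 0.0937. Nr3c2 was therefore the more abundant receptor transcript per length in both genotypes, at 2.76 times the FPKM of Nr3c1 in wildtype and 4.35 times in Nes-cKO. The log2 ratios of the receptors differed by 0.65, a difference that was not tested. Both receptors pass at a looser q of 0.10, where 8.72% of all tested genes pass.

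Tsc22d3 fell and its paralogs did not pass. Tsc22d3 (chromosome X, 137074068 to 137135061) encodes GILZ, a leucine zipper protein that mediates part of the anti-inflammatory action of glucocorticoids. Its level was 21.2 FPKM in wildtype against 15.3 FPKM in Nes-cKO, or 72.1% of wildtype. The log2 ratio was -0.47 (implied SE 0.12), with q = 0.00390 in the authors' deposited table, and 2.32% of tested genes that reached 1 FPKM had a lower ratio. Among the related TSC22-domain genes, Tsc22d1 stood at 137 and 134 FPKM, Tsc22d2 at 4.01 and 4.41 FPKM and Tsc22d4 at 19.99 and 17.7 FPKM. These 3 were named after their values were seen.

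Sult1a1 had the lowest ratio of the 10 genes. It encodes a phenol sulfotransferase, which conjugates small phenols such as catecholamines and drugs, and occupies a short locus (chromosome 7, 133816384 to 133819871). Its level went from 4.01 FPKM in wildtype to 2.46 FPKM in Nes-cKO, or 61.3% of wildtype. The log2 ratio was -0.71 (implied SE 0.20), with q = 0.00795 in the authors' deposited table, and 0.828% of tested genes that reached 1 FPKM had a lower ratio. Among the other cytosolic sulfotransferase genes, the brain form Sult4a1 stood at 116 and 119 FPKM without passing. Sult2b1, which sulfates sterols, had levels of 3.53 and 5.12 FPKM, for which the authors' deposited table gave q = 0.0566. Both were named after their values were seen.

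Hif3a fell at a low level. It encodes a hypoxia-inducible factor subunit whose short forms oppose Hif1a, and glucocorticoids induce it in several tissues. Its level (chromosome 7, 17616342 to 17647776) was 0.914 FPKM in wildtype against 0.623 FPKM in Nes-cKO, or 68.1% of wildtype. The log2 ratio was -0.55 (implied SE 0.18), and the authors' deposited table gave q = 0.0274. Both values lie under 1 FPKM. The call is lost at a q of 0.01, which 4.5% of all tested genes pass. Hif3a is also left out where 1 FPKM in either genotype is required, a filter under which 7.1% of genes are called at a q of 0.05. The other subunit genes, named after their values were seen, did not pass: Hif1a stood at 12.7 and 13.3 FPKM, Epas1 at 22.3 and 19.8 FPKM and their partner Arnt at 7.88 and 7.93 FPKM.

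Cdkn1a was the member that rose. It encodes p21, an inhibitor of cyclin-dependent kinases that glucocorticoids, p53 and growth factor signals can all induce. Its level went from 2.88 FPKM in wildtype to 4.97 FPKM in Nes-cKO (chromosome 17, 29227931 to 29237667), a 1.73-fold rise. The log2 ratio was 0.79 (implied SE at most 0.19), for which the authors' deposited table gave q = 0.00152, the smallest it holds, and 98.1% of tested genes that reached 1 FPKM had a lower ratio. Its paralogs Cdkn1b (10.99 and 10.2 FPKM) and Cdkn1c (0.871 and 0.789 FPKM), named after their values were seen, did not pass.

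Because Cdkn1a is also a classical p53 target, other p53 targets were listed beside it. Of 18 tested, Gadd45a and Plk2 rose, Btg2 fell and 15 did not pass, beside 6.92% called among all tested genes. The stress gene Gadd45a went from 1.98 to 3.52 FPKM and the polo-like kinase gene Plk2, which neuronal activity also induces, from 64.8 to 90.6 FPKM. The antiproliferative gene Btg2 went from 4.90 to 3.47 FPKM. These targets had a median log2 ratio of -0.03.

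Fkbp5, Sgk1, Zbtb16 and Pdk4 did not pass, and their implied intervals show how large a difference the p-value, read this way, places within its error. Fkbp5 encodes a cochaperone that lowers the hormone affinity of the glucocorticoid receptor, in a feedback loop that the receptor itself drives. Its level (chromosome 17, 28536040 to 28623057) was 15.45 FPKM in wildtype against 17.5 FPKM in Nes-cKO. The authors' deposited table gave q = 0.633, and the implied 95% interval of the log2 ratio ran from -0.06 to 0.42. Sgk1, a kinase gene that regulates ion channels and carries the full element shown above, had the smallest difference of the 10. Its level (chromosome 10, 21601990 to 21719708) was 25.7 FPKM in wildtype against 24.8 FPKM in Nes-cKO. The authors' deposited table gave q = 0.987, and the interval ran from -0.30 to 0.21. These values sum over all Sgk1 start sites of a locus of 118 kb, so transcripts from the start site next to the element were not separated from the rest.

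Zbtb16, which encodes the zinc finger repressor PLZF, had levels of 8.66 and 9.63 FPKM (chromosome 9, 48462402 to 48644050). Its q in the authors' deposited table was 0.746 and its interval ran from -0.10 to 0.40. Pdk4 encodes the kinase that switches off pyruvate dehydrogenase and so spares glucose. Its levels were 2.50 and 2.01 FPKM (chromosome 6, 5433351 to 5446278). Its q in the authors' deposited table was 0.345 and its interval ran from -0.62 to 0.00142. Its point value thus lay on the same side as the genes that fell, without passing. The other pyruvate dehydrogenase kinase genes, Pdk1, Pdk2 and Pdk3, named after their values were seen, had log2 ratios of 0.16, 0.15 and 0.11 and did not pass either. The plot of log2 ratios orders the 10 genes and shows where each implied interval lies relative to 0.

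**Figure D2:**
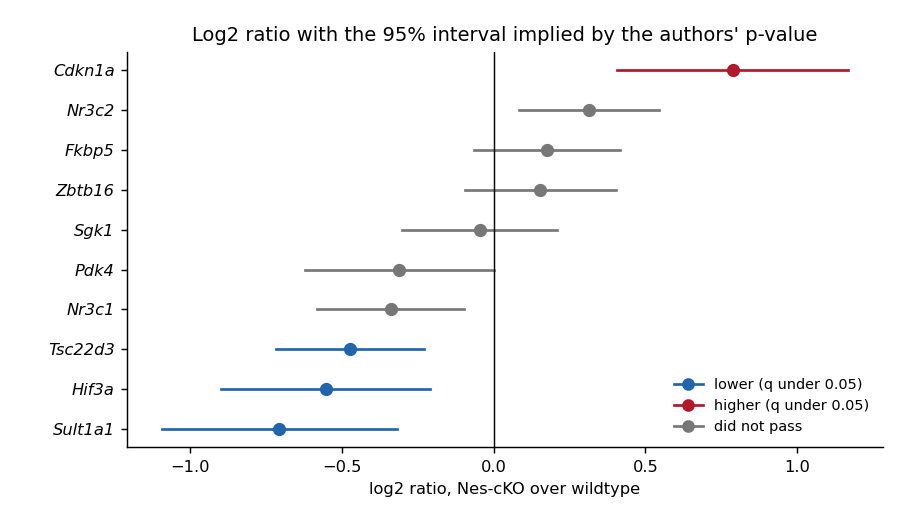
Log2 ratio of Nes-cKO over wildtype FPKM (points) with the 95% interval implied by the authors' deposited p-value (lines), for 3 mice per genotype. The intervals of Sult1a1, Hif3a, Tsc22d3 and Nr3c1 lie below 0 and those of Cdkn1a and Nr3c2 above it before adjustment, and only the 4 coloured genes pass the adjusted threshold. By construction, an interval leaves out 0 where the unadjusted p-value is below 0.05, so it adds no test. The deposited test score, read as a normal score, would give wider intervals.

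The scatter of ratio against level places the 10 genes among all tested genes. Most of the cloud is narrow above 10 FPKM, where Nr3c2, Sgk1, Fkbp5 and Tsc22d3 lie, and broader at low levels, where Hif3a lies. The implied SE of the 10 genes ranged from 0.12 for Nr3c2 to 0.20 for Sult1a1, with 0.18 for Hif3a, and its median over tested genes that reached 1 FPKM was 0.14.

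**Figure D3:**
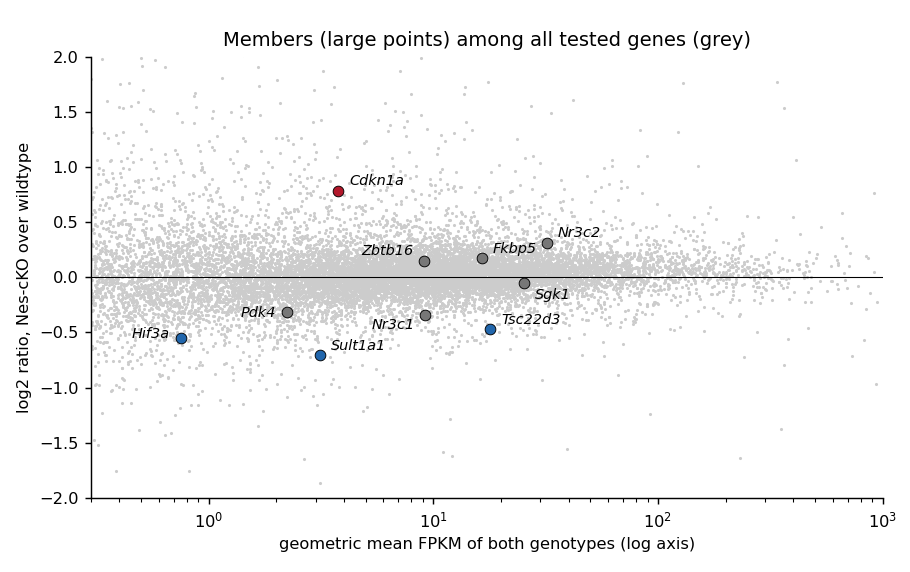
Log2 ratio of Nes-cKO over wildtype against the geometric mean FPKM of both genotypes (log axis), with tested genes in grey and the 10 members as large points, coloured blue (lower), red (higher) or grey (did not pass) by the authors' q at 0.05. The plotted area holds 14353 of 14964 tested genes, and 611 lie outside its axes. Sult1a1 and Tsc22d3 lie at the lower edge of the cloud for their level and Cdkn1a near its upper edge.

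Markers of oligodendrocytes were lower in the same libraries in which Tsc22d3, Sult1a1 and Hif3a fell. All 14 oligodendrocyte markers were tested and detected in both genotypes. Of these, 11 fell and 3 did not pass, beside 2.29% of all tested genes called lower. Their FPKM summed to 1831 in wildtype and 1251 in Nes-cKO, and their median log2 ratio of -0.52 corresponds to 69.6% of wildtype. Mal and Mobp, genes of myelin proteins, stood at 60.9% and 61.3% of wildtype. The levels of Tsc22d3, Sult1a1 and Hif3a, at 72.1%, 61.3% and 68.1% of wildtype, were in the same range as those of the oligodendrocyte markers. That range is not particular to these markers. The astrocytic gene Glul (67.9%) and the hippocampal neuron marker Spink8 (70.6%) also fell into it, though their lists held called genes that rose as well. Bulk tissue cannot tell fewer cells of a type from less RNA per cell, and the part of the oligodendrocyte markers in the falls of the 3 genes was not tested.

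Among the listed markers of astrocytes, vessels, microglia and oligodendrocyte precursors, no gene was called lower. The astrocytic gene Glul was not on the marker list and fell, with values given below. Over all tested genes, 4.62% were called higher and 2.29% lower. Of 10 astrocyte markers, Gfap and Aqp4 rose and 8 did not pass. Summed levels were 1016 FPKM (wildtype) and 1058 FPKM (Nes-cKO), of which Gfap made up 106 and 214 FPKM. The log2 ratio lay above 0 for 5 of these markers and below 0 for 5. An unadjusted p below 0.05 was found for 3, among them Slc1a3, which was lower (133 and 112 FPKM). Aldoc, the most abundant of the 10, stood at 410 and 357 FPKM without passing. Of 12 endothelial and mural markers, the growth factor receptor gene Kdr rose and 11 did not pass, with sums of 117 and 118 FPKM. None of 10 microglia markers passed the authors' q of 0.05, and none had an unadjusted p below 0.05, with sums of 215 and 209 FPKM. Of 6 oligodendrocyte precursor markers none passed the authors' q, with 1 at an unadjusted p below 0.05 and sums of 74.0 and 68.4 FPKM.

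Markers of hippocampal neurons and of neighbouring tissues were counted as well, beside 4.62% of all tested genes called higher and 2.29% lower. Of 14 hippocampal neuron markers, all detected in both genotypes, 2 rose, including Neurod2, 2 fell, including Spink8, and 10 did not pass, with sums of 1667 and 1721 FPKM. Of 9 genes listed as cerebellar markers 7 rose and none fell, led by Gabra6 and Cbln3, with sums of 59.1 and 104 FPKM. Calb2 made up 28.9 and 41.7 FPKM of these sums. Of 9 meningeal markers 2 rose, including Col1a1, 2 fell, including Ogn, and 5 did not pass, with sums of 40.4 and 44.2 FPKM. Of 5 tested choroid plexus markers Aqp1 rose, Ttr fell and 3 did not pass, and the 8 listed markers summed to 17.0 and 12.5 FPKM. The part of these markers in the values of Cdkn1a and the other members was not tested.

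The chaperones that hold the receptors ready did not pass. None of the 16 receptor chaperone genes passed the authors' q of 0.05, beside 6.92% called among all tested genes. None had an unadjusted p below 0.05. Their log2 ratios lay between -0.05 and 0.21, above 0 in 15 of 16. The median was 0.13, beside 0.03 for all tested genes, and this difference was not tested. The heat shock protein gene Hspa8 had 807 FPKM in wildtype against 912 FPKM in Nes-cKO, and Hsp90ab1, which encodes an Hsp90 isoform, at 607 and 663 FPKM. Fkbp4, the cochaperone that competes with Fkbp5 in the receptor complex and favours transport to the nucleus, stood at 37.7 and 42.7 FPKM and was named after its values were seen.

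Of 16 tested coregulators that the receptors recruit on chromatin, 15 did not pass, so the 6.25% called lies near the 6.92% of all tested genes. The coregulators had a median log2 ratio of 0.08. The coactivator gene Ncoa1 had 19.7 FPKM in wildtype against 18.3 FPKM in Nes-cKO, and Nrip1, which encodes a corepressor, had 3.78 against 3.07 FPKM with an unadjusted p of 0.0314 in the authors' deposited table. Both were named after their values were seen.

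Among genes that make, convert and transport steroids, Cyp11a1 rose and Abcb1b fell. Of 15 listed, 9 were tested and 7 of these did not pass, so 22.2% were called beside 6.92% of all tested genes. Cyp11a1, the cholesterol side-chain cleavage enzyme that starts steroid synthesis, went from 0.971 to 1.89 FPKM (the authors' deposited table gave q = 0.00152). Abcb1b, which encodes a P-glycoprotein that exports corticosteroids, went from 0.758 to 0.443 FPKM (q = 0.00999 in the authors' deposited table). Its paralog Abcb1a stood at 4.49 and 3.72 FPKM with q = 0.331, and Hsd11b1, the enzyme that regenerates active corticosterone inside cells, at 20.9 and 18.8 FPKM with q = 0.769, both in the authors' deposited table. Abcb1a and Hsd11b1 were named after their values were seen. None of 5 tested stress hormone peptide and receptor genes passed the authors' q or had an unadjusted p below 0.05, with Crhbp at 8.95 and 9.21 FPKM and Crhr1 at 4.81 and 4.68 FPKM.

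Other genes known to be induced by glucocorticoids moved in both directions. Of 39 tested, 4 rose, 4 fell and 31 did not pass, 20.5% called beside 6.92% of all tested genes. Log2 ratios lay below 0 in 26 and above 0 in 13, with a median of -0.16, and 17 genes had an unadjusted p below 0.05. Among the genes called, Arl4d, a small GTPase gene, had the steepest rise, from 5.89 to 14.98 FPKM, and Rasd1, a Ras-related gene that dexamethasone induces, the steepest fall, from 22.3 to 11.8 FPKM. Cebpb and Ctgf, which encode a transcription factor and a matrix-associated growth factor, rose from 2.56 to 4.69 and from 2.66 to 4.14 FPKM. Glul, the astrocytic glutamine synthetase gene, fell from 461 to 313 FPKM. The remaining calls, named after their values were seen, were a rise of Gadd45g (9.87 and 13.7 FPKM) and falls of the transcription factor genes Bcl6 (17.9 and 12.4 FPKM) and Klf15 (6.91 and 4.84 FPKM). The immediate response genes Per1, at 13.9 and 13.7 FPKM, and Klf9, at 34.9 and 40.5 FPKM, did not pass. Both were chosen for mention after their values were seen.

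The plot of lists shows the spread behind the counts of those lists that it draws. The receptor chaperones form a tight group around their median of 0.13, and the other induced genes extend far to either side of 0.

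**Figure D4:**
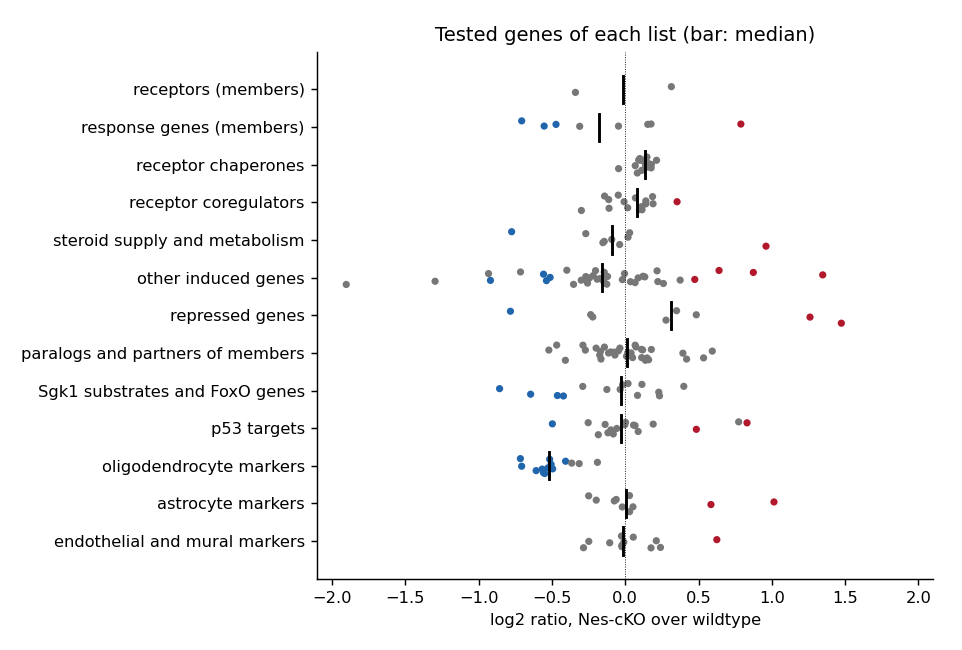
Log2 ratio of Nes-cKO over wildtype for the tested genes of each plotted list (points, spread vertically at random for visibility; bar, median), blue where lower, red where higher and grey where the authors' q was not below 0.05. The stress hormone list and the marker lists of oligodendrocyte precursors, microglia, choroid plexus, meninges, hippocampal neurons and cerebellum are not drawn. All 14 oligodendrocyte markers lie below 0, while the 16 receptor chaperones lie between -0.05 and 0.21.

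Genes that activated glucocorticoid receptors are known to repress, many of them inflammatory, were called in both directions. Of 13 listed, 8 were tested, of which Ptgs2 and Bdnf rose, Mmp9 fell and 5 did not pass, beside 6.92% called among all tested genes. Ptgs2, the cyclooxygenase-2 gene, which neuronal activity also induces, went from 5.29 to 14.7 FPKM. Bdnf, which encodes a neurotrophin, went from 8.84 to 21.2 FPKM. The protease gene Mmp9 went from 0.577 to 0.335 FPKM. The cytokine genes Il1b, Il6 and Tnf, named after their values were seen, were below 0.2 FPKM in both genotypes and had no test.

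Several genes whose products Sgk1 regulates, or that belong to the FoxO pathway, fell. Among 14 tested, Scnn1a, Ndrg1, Foxo1 and Pik3ip1 fell, none rose and 10 did not pass, with a median log2 ratio of -0.03. Of all tested genes, 2.29% were called lower. Ndrg1, whose protein is a classical substrate of Sgk1 and which oligodendrocytes express, went from 32.6 to 20.8 FPKM. Scnn1a, which encodes the alpha subunit of the epithelial sodium channel, went from 2.05 to 1.13 FPKM. The transcription factor gene Foxo1, whose protein Sgk1 and Akt phosphorylate, went from 7.48 to 5.43 FPKM, and Pik3ip1, an inhibitor of PI3 kinase, from 13.6 to 10.1 FPKM. These are transcript levels, and phosphorylation was not measured. The oligodendrocyte markers fell in the same libraries, with the values given above, and their part in the fall of Ndrg1 was not tested.

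None of 33 tested paralogs and partners of the 10 genes passed the authors' q of 0.05, beside 6.92% called among all tested genes. The difference from this share was not tested. Of the 33, 3 had an unadjusted p below 0.05, and the log2 ratios of all 33 had a median of 0.01. This list includes the Tsc22d, Sult, Hif, Cdkn1 and Pdk relatives described above, and further immunophilin genes such as Fkbp1a (300.1 and 314.5 FPKM) and Fkbp8 (139 and 150.3 FPKM). The kinase genes Sgk2 and Sgk3 stood at 0.537 and 0.388 FPKM and at 1.29 and 1.12 FPKM. Among the other steroid receptors, the progesterone receptor gene Pgr stood at 2.05 and 1.98 FPKM. These 3 genes were named after their values were seen, and none of them came near the level of Nr3c2.

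No alternative exon of the 10 genes was among the 320 splicing events that the authors' deposited tables list, which hold only events with a change of inclusion above 10 percentage points. A relative or partner of a member held an event in 3 cases, all named after their values were seen. A 45 nt cassette exon of Arnt (mm9 chromosome 3, 95270715 to 95270759) had an inclusion ratio of 74.7% in wildtype and 57.6% in Nes-cKO in the authors' deposited table. Its junction reads gave 80.0% of 45 reads (95% Wilson interval 66.2% to 89.1%) and 62.0% of 50 reads (48.2% to 74.1%). An 84 nt cassette exon of Ncoa3, a coactivator gene, was listed at 81.1% and 64.0%, with 93.3% of 45 reads and 82.9% of 41 reads. Neither exon passed Fisher's exact test on the junction reads, with two-sided p = 0.142 for Arnt and p = 0.263 for Ncoa3 after Benjamini-Hochberg adjustment over all cassette exons of the table.

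A 30 nt extension at a 5' splice site of Fkbp15 (chromosome 4, 61981993 to 61982022), a relative of Fkbp5, was listed at 60.9% and 77.6%. Its junction reads gave 53.9% of 141 reads and 72.0% of 125 reads. Fisher's exact test gave a two-sided adjusted p = 0.0156 over 35 events. This test compares the pooled libraries and not the mice, and the intervals cover counting error only. All listed events had already been selected for a change of inclusion above 10 percentage points, and the adjustment covers only these. The p-values of Fkbp15, Arnt and Ncoa3 are therefore descriptions of selected events. The level of the Fkbp15 transcript was 8.30 and 8.40 FPKM.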

How the data were processed

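Per the labels' protocols, RNA was isolated with Trizol and made into stranded mRNA libraries for paired-end sequencing at 50 bp. CASAVA, Cufflinks, Cuffdiff and the build mm9 are named, without versions, per the submitters' processing notes. The aligner is not given in the sources used here.

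Per the file headers, the gene table holds the authors' FPKM, test score, p-value and q-value. It does not give the depth of a library. Adjusting the deposited p-values over all tested genes by Benjamini-Hochberg gave the deposited q-values back to within 5.21e-07. The log2 ratio is that of the authors' FPKM values as they stand, without a pseudocount. The implied SE is its absolute value divided by the normal quantile of the deposited p-value. This quantile was a near-constant multiple of the deposited test score (median 1.74, quartiles 1.73 and 1.76). The implied SE is therefore smaller than the one the score, read as a normal score, would give. The smallest p-value, 5e-05, was shared by 491 genes. The splicing tables hold, per the file headers, the authors' inclusion ratio (a fraction) and junction read counts per genotype. Inclusion reads were the rounded mean of the 2 inclusion junctions, set against skipping reads, with Fisher's exact test, Benjamini-Hochberg adjustment within each table and Wilson intervals at the 95% level. Gene loci are those of the authors' table in mm9, written from base 1, and promoter windows are RefSeq's in GRCm38.p6.

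The members and lists were chosen with earlier results of these data known. Besides the members and Rbfox1, each list was to have its called genes named, up to 5 by size of ratio (2 for marker lists), or otherwise its 2 most abundant genes. A called coregulator gene is not reported here. Of 284 listed symbols 283 were in the table. The ratio, call and motif steps were tested on simulated data. Other thresholds, pseudocounts, a filter on low FPKM and centring were tried as alternatives. Computation used Python 3.11.15 with scipy 1.17.1, pandas 2.3.3 and numpy 2.4.6, and matplotlib 3.10.9 for the figures.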

Additional observations from a re-analysis of the deposited data

How the results depend on the processing

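No paired analysis was possible because the gene table holds 1 value per genotype, and for the same reason no mouse could be left out in turn. The count of members called was 4 at a q of 0.05, 3 at 0.01, 6 at 0.10 and 3 among members with an FPKM of at least 1. Every member kept the sign of its log2 ratio with a pseudocount of 1 or 0.1 FPKM and when centred on the median of tested genes. The median of the 10 went from -0.18 to -0.0465 among those with an FPKM of at least 1, which leaves out Hif3a. At a q of 0.01 the calls went to 0 for coregulators, 5 for other induced genes, 1 for p53 targets and 2 for hippocampal neuron markers. At a q of 0.10 they went to 13 for other induced genes and 1 for paralogs. Other list counts stayed within 1.5 times. The number of reads is unknown, so precision at low FPKM, as for Hif3a, rests on the authors' test.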
